A study of Ovis aries with 40 samples.

Results

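Distal lung tissue of CF fetuses was compared with that of WT fetuses at 100 days of gestation. The comparison rests on 4 of the 40 libraries of the series, 2 CF and 2 WT, which were chosen by their titles. The whole series covers proximal and distal lung of both genotypes on days 65, 80, 100 and 120 and at term, each in 2 libraries. Frozen tissue pieces were sequenced in bulk, so for every gene below fewer cells of a type and less RNA per cell cannot be told apart.

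All animals were American Romney sheep. The WT fetuses came from standard breeding, and their label is healthy donor. The CF fetuses were *CFTR*-/- and were made by somatic cell nuclear transfer from male fetal fibroblasts of a single edited line, CF 60, in which exon 2 of *CFTR* had been targeted. The CF fetuses are therefore clones, and the loss of CFTR, the cloning procedure, the genetic background of that line and any difference in fetal sex cannot be told apart in any comparison of CF with WT here. The labels give no sex for the WT fetuses.

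The animal labels limit the WT group further. Both WT libraries at day 100 carry the same animal label, so their spread may be that of a single fetus, whereas the 2 CF libraries carry different labels. CF replicate 2 also shares its animal label with WT replicate 2 at day 65, a library of the other genotype and of another age, and titles decided where both went. The 2 distal WT libraries of day 100 had a chi-square of 7.58 per degree of freedom over 14189 genes, against 22.1 to 821 in the other 9 distal replicate pairs, a measure that grows with depth. They still differed by more than sampling noise and were kept as 2 libraries. The root mean square difference in log2 CPM was 0.26 between the 2 WT and 0.26 between the 2 CF libraries, and 0.66 to 0.70 between a CF and a WT library. The p-values below rest on an error shared over all 20 distal libraries, so they measure the spread between libraries of the same condition across the whole distal series, which may be technical, and for WT at day 100 that spread may lie within an animal.

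Depth also differed with genotype. The WT libraries held 29327274 and 41282976 counted reads and the CF libraries 95350386 and 93134969. Mitochondrial genes took 2.13% and 2.33% of WT reads and 1.801% and 1.86% of CF reads. When all 20 distal libraries were thinned at random to 24670355 reads, all 30 genes of the strictest call below kept their direction, 26 of them passed it again, and their fold changes moved by at most 0.42 on the log2 scale.

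CFTR is a chloride and bicarbonate channel of the apical membrane of epithelia. Before birth the lung epithelium secretes chloride and with it liquid into the lumen, which distends the growing lung, and after birth it turns to sodium and liquid absorption through the epithelial sodium channel. Around day 100 the distal sheep lung passes from branching tubules towards widening future airspaces, with precursors of alveolar type 1 and type 2 cells. Loss of CFTR causes cystic fibrosis, in which airway secretions are thick and the lung becomes infected and inflamed after birth.

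The tissue carried its defining markers in both genotypes. Normalized read counts of *SFTPC*, which encodes surfactant protein C of alveolar type 2 cells, were 1071 and 1096 CPM (reads scaled to the effective library size) in WT and 658 and 859 in CF. Those of *NKX2-1*, the transcription factor of lung epithelium, were 100.1 and 107 CPM in WT and 116 and 118 in CF. *AGER*, a marker of alveolar type 1 cells, gave 250 and 268 CPM in WT and 266 and 239 in CF. None of these 3 genes passed the test, with adjusted p of 0.699, 0.743 and 0.982 by edgeR's quasi-likelihood test. Secretoglobin *SCGB1A1*, the marker of club cells of the airway, was near or at 0, with 0 and 0.648 CPM in WT and 0.447 and 0.218 in CF. The fibroblast genes on the list of mesenchymal markers summed to 10406 and 9655 CPM in WT and 9304 and 12868 in CF, so the pieces held mesenchyme as well as epithelium.

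The targeted gene itself was not called. *CFTR* (chromosome 4, 50644000 to 50864925 in Oar_v4.0, 29 exons) had 32.1 and 26.8 CPM in WT and 19.1 and 23.1 in CF. Both CF libraries lay below both WT libraries. CF differed from WT by -0.48 on the log2 scale (standard error, SE, 0.26, adjusted p = 0.313, edgeR), and among the fits run it was called only where the 4 day 100 libraries were fitted alone (-0.47, adjusted p = 0.00455). *CFTR* was lower in both CF than in both WT libraries on every other distal day too, as the panels of levels by day show. A targeted exon 2 does not require the transcript to be lost, so the level of *CFTR* mRNA is a weak check of the labels.

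At the limits the study set for differentially expressed genes (DEGs), an adjusted p up to 0.001 and a change of no less than 0.58 on the log2 scale, 30 of 20084 genes tested were called (0.149%). Of these, 23 were higher in CF (0.115%) and 7 were lower (0.0349%). At an adjusted p of 0.05 the count was 1064 (5.3%), with 795 higher (3.96%) and 269 lower (1.34%). The median log2 fold change over all genes was 0.01 and the median of its size 0.42. In all 30 DEGs both libraries of a genotype lay above both of the other, but so did 70.1% of all genes tested (36.4% with CF above and 33.7% with CF below). The DEG count rests on each of the 4 day 100 libraries. A library left out below is 1 of these 4, and in the closing counts by processing also WT replicate 2 of day 65. Leaving out any single day 100 library, or summing the 2 WT libraries to a single one, left 0 DEGs, while all 30 kept an adjusted p of 0.05 or less in each of these fits.

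**Figure D1:**
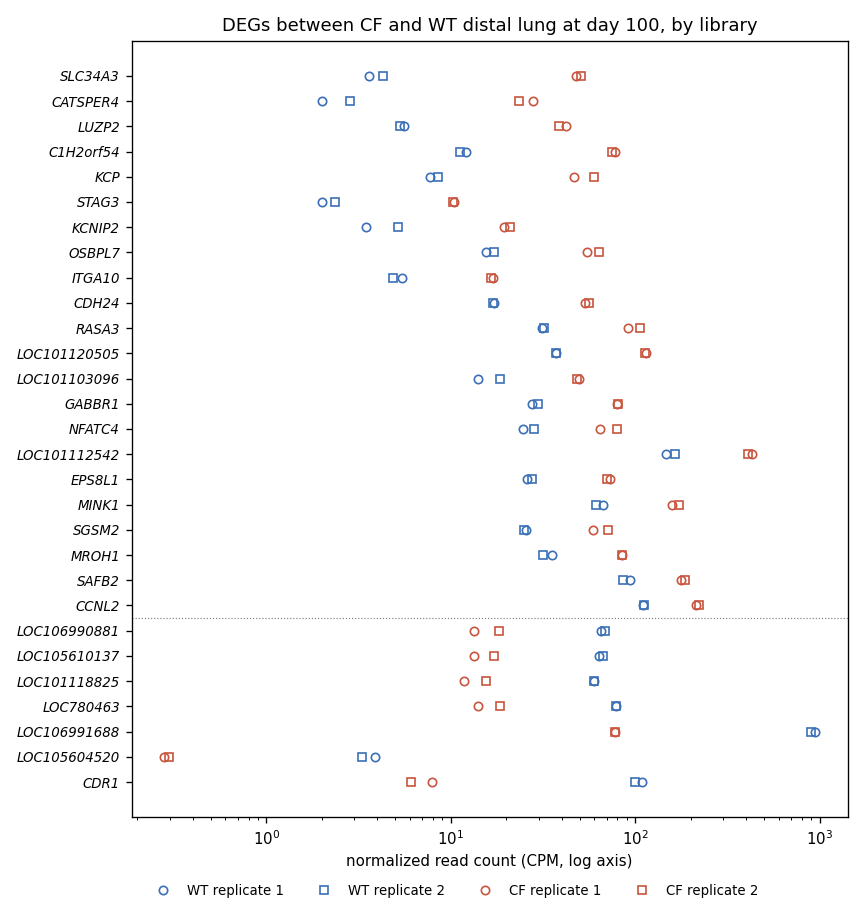
Normalized read counts (CPM, log axis) of DEGs in the 4 distal libraries of day 100, WT in blue and CF in red, with circles for replicate 1 and squares for replicate 2. In the genes above the dotted line both CF libraries lie to the right of both WT libraries, and in the 7 below it both lie to the left.

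Among the DEGs for transporters and channels, the largest rises were in *SLC34A3* and *CATSPER4*. *SLC34A3* encodes a sodium-phosphate cotransporter best known from the kidney. It had 3.62 and 4.31 CPM in WT and 47.6 and 51.0 in CF. *CATSPER4* encodes a subunit of the calcium channel of sperm and had 2.00 and 2.84 CPM in WT and 27.8 and 23.6 in CF. The CF libraries of both genes were far above the WT libraries, by log2 fold changes of 3.63 (SE 0.40, adjusted p = 4.49e-04, edgeR) for *SLC34A3* and 3.40 (SE 0.38, adjusted p = 4.77e-04) for *CATSPER4*. The exons of *SLC34A3* overlap those of LOC101109608, and with the strand of counting not stated their reads cannot be told apart. *KCNIP2*, whose product binds and tunes voltage-gated potassium channels, had 3.45 and 5.16 CPM in WT and 19.4 and 20.9 in CF (log2 fold change 2.23, adjusted p = 7.33e-04).

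Some of the other higher DEGs are known for signalling. *KCP*, a secreted chordin-like modulator of BMP signalling, had 7.72 and 8.57 CPM in WT and 46.5 and 60.0 in CF (log2 fold change 2.71, SE 0.33, adjusted p = 6.35e-04, edgeR). *GABBR1*, a subunit of the GABA-B receptor, had 27.5 and 29.8 CPM in WT and 79.4 and 80.9 in CF (1.49, adjusted p = 4.49e-04). For both genes the gap between genotypes was many times that between replicates. The calcium-regulated transcription factor gene *NFATC4* rose by 1.45, the kinase gene *MINK1* by 1.37, the Ras family regulator *RASA3* by 1.65 and the Rab regulator *SGSM2* by 1.36 on the log2 scale. The exons of *NFATC4* overlap those of LOC105608561.

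Adhesion and cytoskeletal genes were called as well. *ITGA10*, a collagen-binding integrin subunit, had 5.45 and 4.83 CPM in WT and 17.0 and 16.4 in CF (log2 fold change 1.70, SE 0.20, adjusted p = 6.08e-04, edgeR). *CDH24*, a cadherin gene, had 17.1 and 16.9 CPM in WT and 53.2 and 56.5 in CF (1.69, adjusted p = 4.49e-04). Replicates of these genes were nearly equal. *EPS8L1*, related to a regulator of actin, rose by 1.42 and the lipid transfer protein gene *OSBPL7* by 1.85 on the log2 scale. *STAG3*, a cohesin subunit of meiosis, had 2.00 and 2.34 CPM in WT and 10.4 and 10.3 in CF, a rise of 2.25 on the log2 scale.

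Other higher DEGs were nuclear or poorly characterised. *CCNL2*, a cyclin linked to splicing, had 110 and 112 CPM in WT and 213 and 223 in CF, and it was the DEG with the smallest fold change (0.98, SE 0.13, adjusted p = 9.88e-04, edgeR). *SAFB2*, a nuclear RNA and DNA binding protein gene whose exons overlap LOC101112316, rose by 1.02 on the log2 scale. *C1H2orf54* had 12.1 and 11.2 CPM in WT and 77.6 and 74.5 in CF, a rise of 2.71. *LUZP2* (leucine zipper protein) had 5.59 and 5.31 CPM in WT and 42.1 and 38.5 in CF, a rise of 2.89. Further higher DEGs were *MROH1* and 3 genes known only by LOC numbers (LOC101120505, LOC101103096 and LOC101112542), with rises of 1.34 to 1.604 on the log2 scale.

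The 7 lower DEGs included a single gene with a symbol of its own. *CDR1* (chromosome X, 89397004 to 89399137) had 109 and 99.1 CPM in WT and 7.89 and 6.07 in CF, a log2 fold change of -3.90 (SE 0.40, adjusted p = 4.49e-04, edgeR). LOC106991688 on chromosome 17 had 947 and 898 CPM in WT and 78.0 and 77.9 in CF (-3.56, adjusted p = 7.33e-04). LOC105604520, whose exons overlap the fatty acid oxidation gene *ACAA2*, had 3.90 and 3.29 CPM in WT and 0.279 and 0.297 in CF (-3.63, adjusted p = 5.42e-04). All 3 were lower in both CF libraries by a wide margin.

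The other 4 lower DEGs, LOC106990881, LOC105610137, LOC101118825 and LOC780463, had a single exon each, of 581 to 640 bases. Their levels were 60.0 to 78.5 CPM in WT and 11.8 to 18.6 in CF, and their log2 fold changes lay between -2.26 and -2.08. In each of the 4 genes CF replicate 1 was below CF replicate 2. Whether they share reads of near-identical copies, which the counting could split, was not tested, so their separate values are uncertain.

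The rule for largest falls reached beyond the DEGs, to genes at an adjusted p of 0.05 or less. *EPYC*, a proteoglycan of cartilage, had 3.28 and 2.86 CPM in WT and 0.0559 and 0 in CF. *PENK*, the precursor of enkephalins, had 43.5 and 47.0 CPM in WT and 0.950 and 0.138 in CF, a log2 fold change of -6.37 (SE 1.47, adjusted p = 0.0237, edgeR). *PENK* in WT varied with the animal and day, from 0.202 CPM at term to the 2 day 100 values, which were the highest of the 20 distal libraries. The calls of *PENK* and *EPYC* ended without any single day 100 library, at adjusted p of 0.0948 to 0.220 and 0.0851 to 0.193, and their log2 fold changes ran from -8.33 to -5.57 and from -10.83 to -5.74.

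Other named falls were in genes of known function. *CDH6*, a cadherin gene of developing epithelia, had 47.2 and 49.3 CPM in WT and 8.84 and 8.51 in CF (log2 fold change -2.48, adjusted p = 0.00264, edgeR). *TFPI*, the inhibitor of the tissue factor pathway of coagulation, had 87.3 and 89.2 CPM in WT and 19.3 and 17.1 in CF (-2.28, adjusted p = 0.00318). *FAM19A2*, a secreted chemokine-like factor gene, had 6.93 and 6.58 CPM in WT and 0.763 and 0.514 in CF (-3.40, adjusted p = 0.00344). Without CF replicate 2 the calls of *CDH6*, *TFPI* and *FAM19A2* ended at adjusted p of 0.0528, 0.0662 and 0.0707. *ZBTB20*, a transcription factor gene (-3.41), *SDR16C5*, a retinol dehydrogenase gene (-3.71), *PON1*, the paraoxonase gene (-2.47), *CLHC1* (-2.66) and *EPSTI1* (-2.13) were lower with adjusted p of 0.0245 to 0.0477, and each lost the call in at least 1 fit without a library, where *SDR16C5* ran from -6.26 to -2.85.

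Membrane transport was examined with lists of channels and transporters. Of 54 tested genes of calcium and TRP channels, 9 rose (16.7%, against 3.96% of all genes) and 0 fell (against 1.34%) at an adjusted p of 0.05, with a median log2 fold change of 0.49 against 0.01 over all genes. Those that rose were *CATSPER4*, *PKD1L2*, *CACNG4*, *PKD1*, *CACNA1G*, *TRPM4*, *CATSPER2*, *CACNB2* and *CACNB3*. *PKD1*, the polycystin of primary cilia and of polycystic kidney disease, had 45.2 and 39.3 CPM in WT and 122 and 127 in CF (log2 fold change 1.56, SE 0.25, adjusted p = 0.00335, edgeR). *CACNA1G*, a T-type calcium channel, had 15.7 and 15.1 CPM in WT and 40.5 and 39.7 in CF (1.38, adjusted p = 0.0173). The call of *PKD1* ended without either WT library, at adjusted p of 0.057 and 0.0855. With the 2 WT libraries summed, 1 of the 54 genes passed.

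Of 38 ABC transporter genes, 4 rose (10.5%, against 3.96% of all genes) and 0 fell, with a median of 0.31. With a library left out 0 to 2 passed, and with the WT libraries summed 0. *ABCC5*, an exporter of cyclic nucleotides, had 54.2 and 59.9 CPM in WT and 136 and 136 in CF, a log2 fold change of 1.25 (SE 0.22, adjusted p = 0.0065, edgeR), and its exons overlap LOC101108715. *ABCC10*, a multidrug exporter, had 17.7 and 14.0 CPM in WT and 36.6 and 39.1 in CF (1.25, adjusted p = 0.00582). *ABCA7* and *ABCB6* were the others, at 1.05 and 0.80. Exons numbered 33 in *ABCC5* and 22 in *ABCC10*, and of all genes with over 20 exons 9.77% rose. The part of exon number in the calls of this list was not tested. With a library left out the adjusted p of *ABCC5* ran from 0.0456 to 0.0996 and that of *ABCC10* from 0.0359 to 0.113.

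Among 21 genes of chloride and bicarbonate transport, 3 rose (14.3%, against 3.96% of all genes) and 0 fell, with a median of 0.27. With a library left out 0 to 1 passed, and with the WT libraries summed 0. *ANO9*, of the anoctamin family of ion channels and scramblases, had 1.45 and 1.99 CPM in WT and 7.48 and 6.93 in CF (log2 fold change 2.06, SE 0.40, adjusted p = 0.00989, edgeR), and without a library its adjusted p was 0.071 to 0.152. *SLC4A2*, a chloride-bicarbonate exchanger of the basolateral membrane, had 53.1 and 48.9 CPM in WT and 87.0 and 96.2 in CF (0.85, adjusted p = 0.00576), and *SLC26A6*, another such exchanger, had 4.65 and 5.13 CPM in WT and 10.8 and 11.1 in CF (1.17, adjusted p = 0.0474). The calcium-activated chloride channel *ANO1* had 60.0 and 63.1 CPM in WT and 79.0 and 73.8 in CF, and *SLC26A9*, a chloride channel of airway epithelium, had 31.2 and 34.3 in WT and 44.3 and 61.0 in CF. Both genes were higher in both CF libraries, as were 36.4% of all genes tested, but missed the test, with adjusted p of 0.404 and 0.494 by edgeR.

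The sodium absorption and water channel list had a negative median, -0.48, with 0 of 14 genes higher and 1 lower (7.14%, against 1.34% of all genes). With a library left out the median ran from -0.69 to -0.10 and 0 genes were lower. The gene called was *ATP1B1*, the beta subunit of the sodium pump, with 222 and 226 CPM in WT and 141 and 139 in CF (log2 fold change -0.68, SE 0.17, adjusted p = 0.0331, edgeR). The epithelial sodium channel genes did not pass. *SCNN1A* had 2.69 and 2.69 CPM in WT and 4.51 and 3.18 in CF (0.51, adjusted p = 0.55), and *SCNN1B* had 14.0 and 11.1 in WT and 6.65 and 9.40 in CF (-0.64, adjusted p = 0.225). The signs of the 2 subunits were opposite, and neither passed the test.

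Of 317 solute carrier genes, 17 rose and 1 fell, shares of 5.36% and 0.315% against 3.96% and 1.34% over all genes, with a median of 0.15. With a library left out 2 to 8 rose and 0 fell. Beside *SLC34A3*, the sulfate and anion exchanger family member *SLC26A10* had 8.38 and 7.45 CPM in WT and 37.0 and 42.6 in CF (log2 fold change 2.33, adjusted p = 0.00127, edgeR), and the taurine transporter gene *SLC6A6* had 26.4 and 22.99 in WT and 48.8 and 63.9 in CF (1.19, adjusted p = 0.00283). Sodium-proton exchanger genes *SLC9A2* and *SLC9A5* rose by 3.36 and 1.54 on the log2 scale, the former from 0.345 and 0.149 CPM in WT. The single fall was in *SLC16A14*, at -0.98. Of 85 potassium channel genes, 3 rose (*KCNIP2*, *KCNJ14* and *KCNH2*) and 0 fell, with a median of -0.03.

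**Figure D2:**
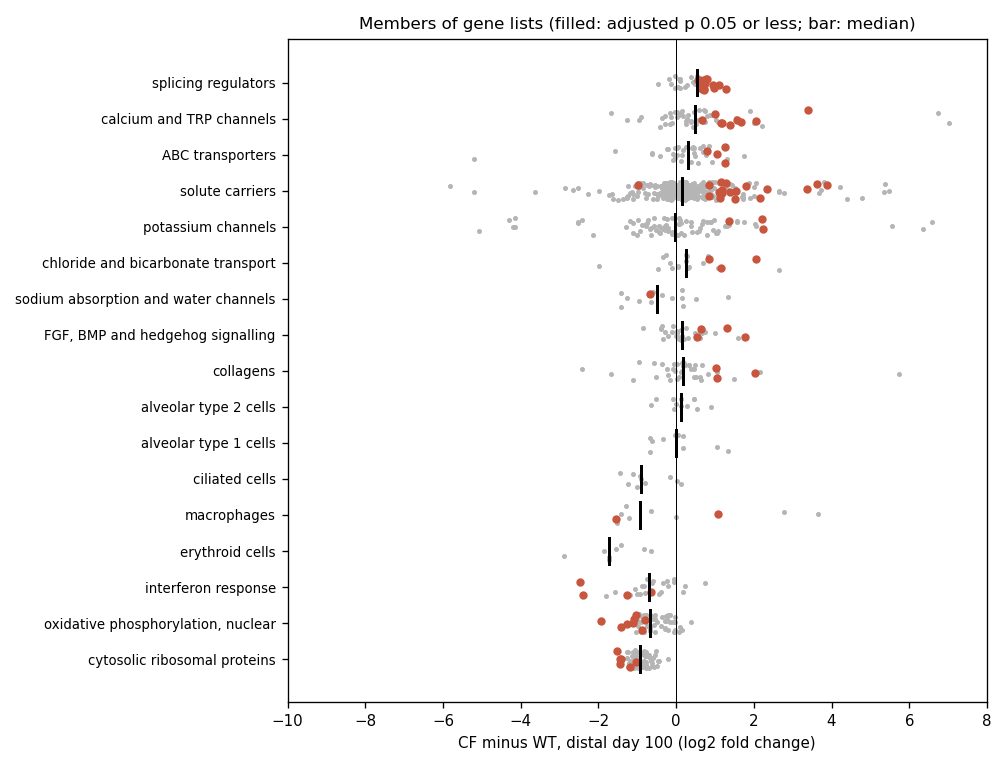
Log2 fold change of CF against WT in distal lung at day 100 for the tested members of 17 gene lists, 1 point a gene, with points filled red where the adjusted p was at most 0.05 and a black bar for the median of the list. Splicing regulators and calcium and TRP channels lie to the right of 0, with medians of 0.55 and 0.49, and ribosomal proteins, oxidative phosphorylation, interferon and erythroid genes to the left.

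Genes of splicing regulators that are known for poison exons or retained introns had the largest share of calls among the lists. Of 33 tested, 16 rose (48.5%, against 3.96% of all genes) and 0 fell, with a median log2 fold change of 0.55. Like the others, this list was chosen with earlier results of these data known, so its share is not an independent result. *SRSF5* and *SRSF6*, serine and arginine rich splicing factors, had 57.6 and 64.3 CPM in WT against 153 and 144 in CF, and 212 and 242 against 430 and 452. The gap was 1.28 (SE 0.19, adjusted p = 0.00196, edgeR) for *SRSF5* and 0.96 (0.17, adjusted p = 0.00588) for *SRSF6*. *OGT*, the O-GlcNAc transferase whose transcript retains an intron, rose by 1.11 and *DDX39B*, an RNA helicase, by 0.79, and the others were *CCNL2*, *CLK2*, *HNRNPH1*, *LUC7L*, *NKTR*, *PNISR*, *PNN*, *RBM5*, *RBM6*, *SRRM1*, *SRSF2* and *SRSF4*. The medians of the list at days 65, 80 and 120 and at term were 0.36, 0.62, 0.42 and 0.62, so in this list the sign was the same on all 5 distal days. With the 2 WT libraries summed, 1 of the 33 genes passed, and with any single library left out 1 to 4 did.

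Most genes of ribosomes and respiration did not pass the test, and those that did were lower. All 75 tested genes of cytosolic ribosomal proteins had a negative log2 fold change, with a median of -0.92, and 6 of them passed the test (8%, against 1.34% of all genes called lower: *RPL5*, *RPL22*, *RPL35*, *RPL39*, *RPS3A* and *RPS29*). Together they took 108539 and 115470 CPM in WT and 55752 and 64692 in CF. The share of all genes called lower was 6.43% where the mean log2 CPM was over 8, and 3.7% in the shortest sixth by exonic length. The part of level or length in the calls of ribosomal protein genes was not tested. Of 59 nuclear genes of oxidative phosphorylation, 8 fell (13.6%, against the same 1.34%) and 0 rose, with a median of -0.67. *NDUFA4*, of the respiratory chain, had 95.8 and 111 CPM in WT and 27.3 and 26.9 in CF (log2 fold change -1.93, SE 0.34, adjusted p = 0.00588, edgeR), and the others were *ATP5I*, *ATP5J2*, *ATP5L*, *NDUFA6*, *NDUFB2*, *NDUFB5* and *NDUFC1*. After removal of a trend on gene length the medians were -0.60 for ribosomal proteins and -0.38 for oxidative phosphorylation, with 10 and 9 genes lower. With the 2 WT libraries summed 0 genes of either list passed, and with any single library left out 0 ribosomal protein genes and 0 to 1 of oxidative phosphorylation did. At term the medians were 0.88 and 0.15, the opposite sign.

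The sign of the difference moved with gene structure as well. Single-exon genes had a median log2 fold change of -0.34. Of 782 of them 7 were higher (0.895%, against 3.96% of all genes) and 51 lower (6.52%, against 1.34%) at an adjusted p of 0.05 by edgeR. Genes with over 20 exons had a median of 0.21, with 243 of 2486 higher (9.77%) and 10 lower (0.402%). In the shortest sixth of genes by exonic length, 46 were higher (1.37%) and 124 lower (3.7%) of 3351. The gene lists of this report were set against all genes, and not against genes of like exon number, length or level. The same order from single-exon genes to genes with over 20 exons held at day 80 (-0.33 to 0.26), at day 120 (-0.32 to 0.22) and in proximal lung at day 100 (-0.29 to 0.14), was smaller at day 65 (-0.16 to -0.01) and was turned at term (0.20 to -0.07). By exonic length, the medians of the shortest and longest sixths were -0.29 and 0.11 at day 100, and at day 65 their order was turned (0.03 and -0.11). The part of RNA quality or of library preparation in these differences was not tested. With the length trend removed, the counts at an adjusted p of 0.05 were 757 higher and 480 lower, and with upper quartile scaling 716 higher and 397 lower, in place of 795 and 269.

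**Figure D3:**
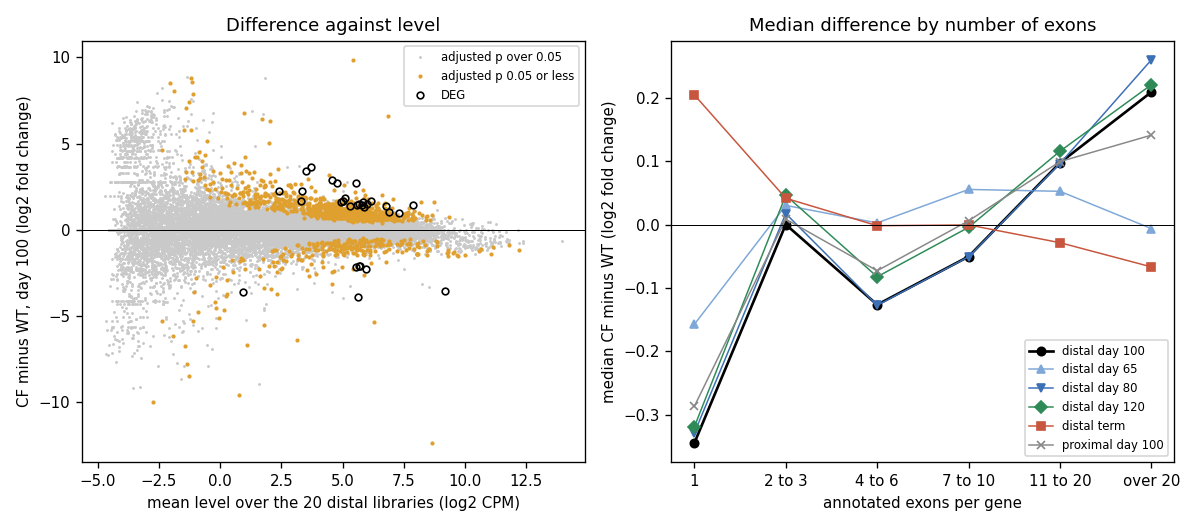
On the left, the log2 fold change of CF against WT at day 100 against the mean level over the 20 distal libraries (log2 CPM) for 20084 genes, with orange points for an adjusted p of 0.05 or less and open circles for the 30 DEGs. On the right, the median log2 fold change by number of annotated exons for each distal day and for proximal lung at day 100, which at day 100 distal goes from -0.34 in single-exon genes to 0.21 in genes with over 20 exons.

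Of 12 alveolar type 2 and 10 alveolar type 1 markers, 0 passed the test in either direction (5.3% of all genes did), with medians of 0.12 and 0.01. Summed levels of the type 2 list were 4227 and 4186 CPM in WT and 3789 and 4127 in CF, and those of the type 1 list 1390 and 1400 in WT and 1523 and 1288 in CF, so the genotypes overlapped for the type 1 list. Surfactant genes *SFTPB* and *SFTPD* had log2 fold changes of 0.27 and 0.13 and *SFTPA1* of -0.65, with adjusted p of 0.731, 0.897 and 0.577. *AQP5*, a water channel of type 1 cells, had 5.07 and 6.003 CPM in WT and 16.4 and 11.4 in CF, with an adjusted p of 0.0557.

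Airway markers had negative medians, and none passed the test. Of 7 airway secretory and 10 ciliated cell markers 0 passed, with medians of -2.44 and -0.91. *SCGB3A2*, a secretoglobin of early airway epithelium, had 23.7 and 38.3 CPM in WT and 4.15 and 2.01 in CF (log2 fold change -3.33, SE 1.46, adjusted p = 0.203, edgeR), and *FOXJ1*, the factor of motile cilia, had 44.3 and 47.1 in WT and 29.4 and 23.4 in CF (-0.79, adjusted p = 0.587). *WFDC2* had 20.4 and 24.8 CPM in WT and 18.3 and 20.1 in CF, with an adjusted p of 0.875. *BPIFA1*, an airway defence gene, had 0.207 and 0.349 CPM in WT and 0.0186 and 0 in CF (adjusted p = 0.227). The tight junction scaffold gene *TJP1* had 295 and 283 CPM in WT and 331 and 303 in CF (adjusted p = 0.82). Of 28 claudin and other tight junction genes 2 rose (7.14%, against 3.96% of all genes) and 1 fell (3.57%, against 1.34%), among them *CLDN10*, a claudin of ion-selective junctions, from 100.8 and 96.3 CPM in WT to 40.7 and 49.1 in CF (-1.14, adjusted p = 0.0435), and *CLDN15*, which rose by 2.04 on the log2 scale from under 1 CPM. With a library left out 0 to 1 of these genes rose and 0 fell. Of 7 general epithelial markers 1 fell (14.3%, against 1.34% of all genes), *EPCAM*, by 0.56 on the log2 scale (adjusted p = 0.0474), and 0 were lower with any single library left out, with the WT libraries summed or with the length trend removed.

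Markers of other cell types stood beside these results. Of 9 erythroid markers all were lower in both CF libraries, as were 33.7% of all genes tested. Their median was -1.72 and their summed levels were 40.7 and 37.4 CPM in WT and 18.8 and 18.3 in CF, but 0 passed the test. Of 10 macrophage markers *CD68* rose (1.07) and *MRC1* fell (-1.55), with a median of -0.92 and summed levels of 144 and 137 CPM in WT and 88.3 and 102 in CF, and *MARCO* was at 0 in 3 of the 4 libraries. Of 11 endothelial markers *VWF*, the von Willebrand factor gene, and *EGFL7* rose (1.56 and 1.11) and 0 fell, and 0 to 1 rose with a library left out. These are 1 or 2 genes a list, beside 3.96% of all genes called higher and 1.34% lower. The part of cell composition in the other results was not tested.

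Of 5 liver markers 1, *APOB*, was called (20%, against 1.34% of all genes called lower). In 3 of the 5 both libraries of a genotype lay above both of the other, as in 70.1% of all genes tested. *APOB*, the apolipoprotein of liver and gut, had 1.86 and 3.84 CPM in the 2 WT libraries and 0.0745 and 0 in the CF libraries (adjusted p = 0.0411, edgeR). The call of *APOB* ended without any single day 100 library, where its log2 fold change ran from -10.72 to -5.23. In the other 16 distal libraries *APOB* stayed at or below 0.0532 CPM, and in proximal lung of the same WT animal label it was 12.2 and 9.78 CPM. The list of 5 liver markers summed to 15.4 and 18.98 CPM in WT and 10.5 and 9.38 in CF. The source of this signal was not tested.

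Interferon, inflammatory and complement genes had negative medians (-0.27 for the inflammatory and -0.52 for the complement list). Of 26 interferon response genes 4 fell (15.4%, against 1.34% of all genes) and 0 rose, with a median of -0.69, and 0 passed with the WT libraries summed or with any single library left out. *IFI6*, an interferon-induced gene, had 30.6 and 34.3 CPM in WT and 8.02 and 4.18 in CF (log2 fold change -2.41, SE 0.52, adjusted p = 0.0172, edgeR). The call of *IFI6* ended without any single day 100 library, where its log2 fold change ran from -2.95 to -2.02. *IFIT2*, *IFIT5* and the chemokine gene *CXCL11* were the others (-1.27, -0.64 and -2.47). Of 27 inflammatory response genes *CXCL11* alone was called. The neutrophil chemokine *CXCL8* had 0.897 and 0.897 CPM in WT and 0.130 and 0.0791 in CF (adjusted p = 0.0878, and 0.0468 at equal depth), and complement *C3* had 42.0 and 53.6 in WT and 27.1 and 22.9 in CF (-0.94, adjusted p = 0.131). *KNG1*, the kininogen gene, and *CHI3L1*, a chitinase-like protein gene, were lower in both CF libraries (-2.26 and -0.66) and missed the test at 0.211 and 0.394, and LOC101123672, a complement C4 gene named by the study, did not separate the genotypes (0.10). Of 22 complement genes 1 rose and 1 fell (4.55% each, against 3.96% and 1.34% of all genes), and 0 passed with any single library left out, the rise being in *MASP2*, a protease of the lectin pathway, by 1.43 on the log2 scale.

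Developmental signalling genes gave few calls. Of 32 genes of FGF, BMP and hedgehog signalling 4 rose (12.5%, against 3.96% of all genes) and 0 fell, with a median of 0.15, and 0 passed with the WT libraries summed and 0 to 2 with a library left out. *GLI1*, a transcription factor that hedgehog signalling induces, had 18.3 and 18.8 CPM in WT and 54.3 and 71.4 in CF (log2 fold change 1.76, SE 0.32, adjusted p = 0.00689, edgeR). The hedgehog receptor *PTCH1* rose by 0.63 on the log2 scale, and *FGFR3*, a receptor for fibroblast growth factors, by 0.53. Of 39 WNT and NOTCH genes, 28 lung transcription factor genes, 25 imprinted genes and 19 genes of the IGF system 0 passed, with medians of 0.35, -0.01, 0 and 0.08. *IGF2*, the fetal growth factor, had 1771 and 1787 CPM in WT and 1168 and 1098 in CF, with an adjusted p of 0.583.

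Matrix and vascular genes gave few calls. Of 42 collagen genes *COL9A3*, *COL11A2* and *COL7A1* rose (2.02, 1.06 and 1.03, 7.14% against 3.96% of all genes) and 0 fell, with a median of 0.19, and 0 passed with any single library left out. The first 2 of these are collagens of cartilage, and of 8 cartilage markers tested they were the 2 called. Of 27 integrin genes *ITGA10* and *ITGA7* rose (7.41%, against 3.96% of all genes). *ITGA8*, a subunit of lung mesenchyme, was the single integrin gene called lower (3.7%, against 1.34%), by 0.93 on the log2 scale. *ANGPT1*, the angiopoietin that stabilises vessels, fell from 113 and 106 CPM in WT to 50.8 and 45.6 in CF (-1.19, adjusted p = 0.00963, edgeR). It was the single call among 19 angiogenesis genes (5.26%, against 1.34% of all genes called lower), and the call ended without any single day 100 library. Of 50 cell cycle genes *CDC25B* alone was called, higher by 0.61 (2%, against 3.96% of all genes called higher). Of 33 immediate early and stress genes and 30 genes of hypoxia and glycolysis 0 were called, against 5.3% of all genes.

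The day 100 calls were compared with those on the other distal days, which share no library with them but share the CF cell line. All days were tested in the same fit of the 20 distal libraries, so the error estimate of a gene is shared too. The overlap of calls is therefore not independent repetition. Of the 30 DEGs, 25 passed an adjusted p of 0.05 in the same direction at days 65, 80 and 120, 3 at 2 of these days and 2 (*C1H2orf54* and *LUZP2*) at a single one. Of the 795 genes higher at day 100, 414 were also higher at day 65 (52.1%, and 47.3% of those called there), 514 at day 80 (64.7% and 62.3%) and 381 at day 120 (47.9% and 57.6%). The backgrounds of genes called higher on these days were 4.36%, 4.11% and 3.3%. Of the 269 lower genes 55, 151 and 84 were also lower, against backgrounds of 0.866%, 1.81% and 1.09%.

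**Figure D4:**
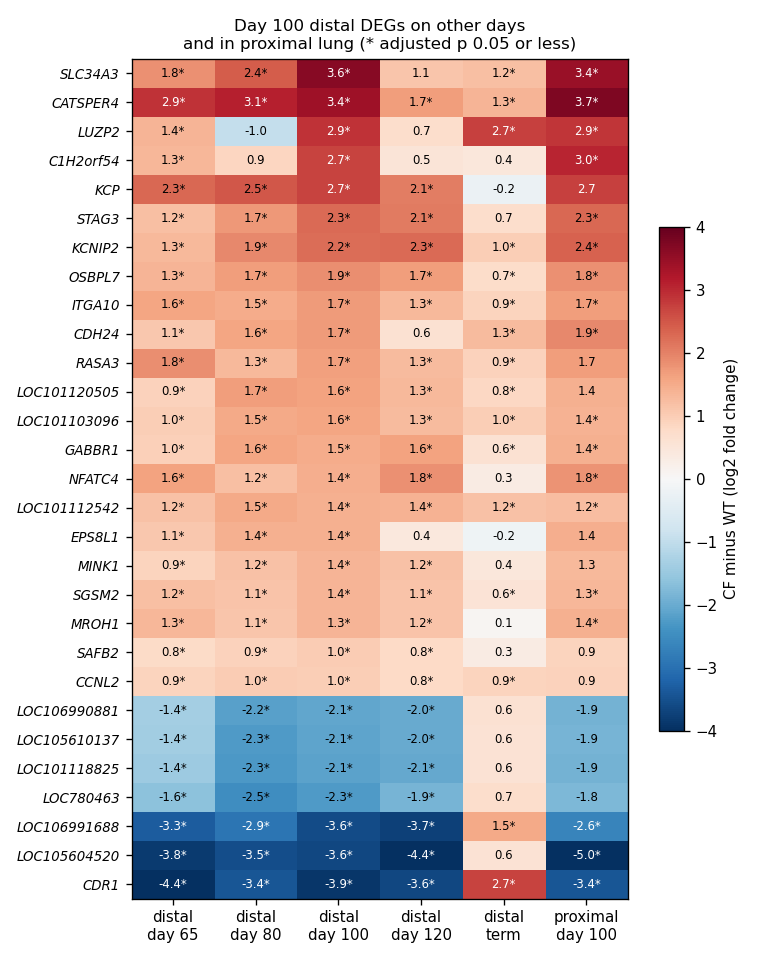
Log2 fold change of CF against WT for day 100 distal DEGs on each distal day and in proximal lung at day 100, with red for higher and blue for lower in CF and an asterisk for an adjusted p of 0.05 or less. The 7 lower DEGs are blue in every column but term, where all 7 are above 0.

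Term differed from the days before it. Of the 23 higher DEGs, 21 had a positive log2 fold change at term and 15 were called higher there (background 7.65%), with a median of 0.82, while 7.57% of all genes were called lower. All 7 lower DEGs had a positive log2 fold change at term, from 0.58 to 2.71, and 2 of them, *CDR1* and LOC106991688, were called higher. This turn was not that of all genes lower at day 100. Of the 269 genes, 136 kept their sign at term, 37 were called lower there and 16 higher, and of the 795 higher genes 206 (25.9%) were called higher and 37 lower. *CDR1* fell in WT from 109 and 99.1 CPM at day 100 to 0.124 and 0.0703 at term, and in CF from 7.89 and 6.07 to 0.416 and 0.877. LOC106991688 in WT went from 947 and 898 to 151 and 323 CPM and in CF from 78.0 and 77.9 to 477 and 874. At term the CF libraries (117558311 and 119451372 reads) and the WT libraries (115937437 and 126749480) were of like depth, unlike those before it, and the part of depth, of the sequencing or of birth in this turn was not tested.

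Whether a difference was particular to day 100 was tested as the CF minus WT difference at day 100 against its mean at days 65, 80 and 120. A single gene of 20084 passed (0.00498%), and 522 (2.6%) had an unadjusted p below 0.05. LOC101103227 (chromosome 3, 204581706 to 204598734) had 1.76 and 1.74 CPM in WT and 7.95 and 7.43 in CF at day 100, against 7.48 to 16.8 CPM in the 6 WT libraries and 5.24 to 9.67 in the 6 CF libraries of the other 3 days. The WT libraries of day 100 were thus the ones that stood apart. The day difference was 2.55 (SE 0.33, adjusted p = 0.0316, edgeR), by DESeq2 19 genes passed, and the call was lost without any single day 100 library, with the WT libraries summed and at equal depth.

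Some other large differences went with low levels in the WT libraries of day 100 alone or with a few others. *ASIP*, the agouti signalling gene of coat colour, chosen after its values were seen as a large rise, had 1.07 and 1.05 CPM in WT and 99.1 and 108 in CF at day 100 (log2 fold change 6.61, adjusted p = 0.0324, edgeR). WT replicate 1 at day 65 and at day 120 was also at 1.42 and 1.35 CPM, while the other 6 WT distal libraries had 52.6 to 224 CPM. The WT libraries thus fell into a low and a high set for this gene. Its call ended without any single day 100 library, with log2 fold changes from 6.55 to 6.68. *LUZP2* was at 56.2 and 34.4 CPM in WT at day 80 and 27.0 and 31.1 at day 120, above the 5.59 and 5.31 of day 100, but at 5.83 and 11.1 at day 65 and 1.85 and 1.70 at term.

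LOC101112291, a long noncoding RNA gene on chromosome X (62537188 to 62573407) that was also chosen after its values were seen, had 1054 and 1198 CPM in WT and 0.205 and 0.218 in CF at day 100. It was at 0.0108 to 0.270 CPM in the 10 distal CF libraries and at 405 to 1316 CPM in 8 of the 10 WT ones, and WT replicate 2 at day 80 and at term had 0.177 and 0.0703 CPM. The libraries that share an animal label, WT replicate 2 at day 65 and CF replicate 2 at day 100, had 1316 and 0.218 CPM. Its adjusted p was 0.0372 by edgeR, and the call ended without any single day 100 library, with log2 fold changes from -12.46 to -12.27. Whether its level goes with fetal sex was not tested, and 0 of 9 sex-linked genes sought were in the table.

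**Figure D5:**
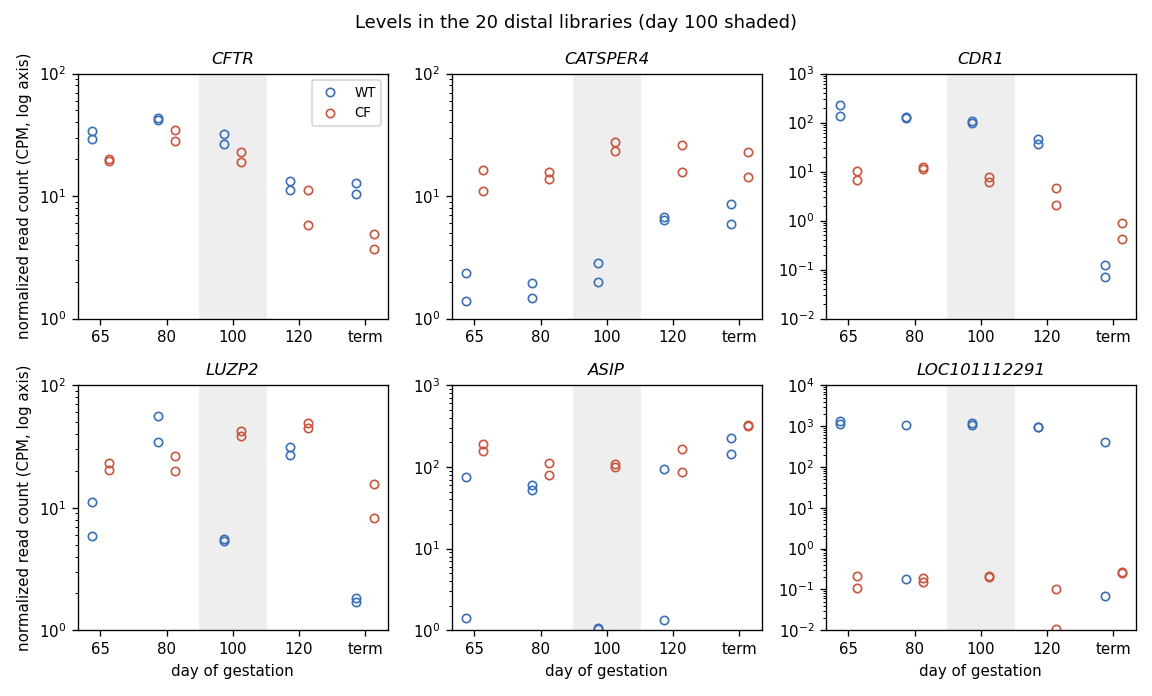
Normalized read counts (CPM, log axis) of 6 genes in the 20 distal libraries by day of gestation, WT in blue and CF in red, 1 circle a library, with day 100 shaded. *CATSPER4* is higher and *CFTR* lower in CF on each day, *CDR1* turns at term, *LUZP2* and *ASIP* in WT are low at day 100 and in some libraries of other days, and LOC101112291 is near 0 in CF and in 2 WT libraries.

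Proximal lung of the same animals gave a weaker call of like direction. There 0 of 20344 genes were DEGs (0%) by edgeR, 168 were by DESeq2, 78 passed an adjusted p of 0.05 (0.383%), 60 higher (0.295%) and 18 lower (0.0885%), and 2639 had an unadjusted p below 0.05 (13%). Of the 60 and 18 genes, 56 (93.3%) and 16 (88.9%) were also called in distal lung, against 3.96% and 1.34% of all genes tested there. They are 7.04% and 5.95% of the distal calls. Of the 30 distal DEGs all had the same sign in proximal lung, and 18 passed 0.05, 15 higher and 3 lower. Since both tissues came from the same animal labels, this comparison adds tissue but no animals.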

How the data were processed

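RNA was sequenced from oligo dT libraries as 100 bp paired reads on an Illumina NovaSeq. The authors aligned reads to Oar_v4.0 with STAR 2.7.0e_0320 (the submitters' processing notes list STAR 2.6), assigned them to genes with featureCounts 1.6.3, tested them with edgeR 3.34.1 and deposited raw read counts per gene. The annotation release, strand setting and treatment of mates are not given in the sources used here. Among counts of 1 to 20 in the distal day 100 libraries, 76.8% to 78.0% were even.

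The counts were analysed here with edgeR 4.0.16 under R 4.3.3 (limma is 3.58.1). Of 24478 genes in the table, 20084 passed filterByExpr (count minimum 10, total minimum 15) in the 20 distal libraries, which were scaled by TMM and fitted together with a mean per condition by glmQLFit. CF was tested against WT by edgeR's quasi-likelihood test (glmQLFTest, 2-sided) and p-values were adjusted after Benjamini and Hochberg across the whole table tested. The day difference was a contrast in the same fit, and proximal lung was fitted alike with 20344 genes. An exact permutation test of 2 against 2 libraries cannot go below a p of 0.333, so none is given. CPM values use TMM effective library sizes. A count of 0 allows up to 3 reads, which per total reads are 0.0315 and 0.0322 CPM in the CF and 0.102 and 0.0727 CPM in the WT libraries, for counting error only.

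Named genes were those the study names, the 12 largest rises and 12 largest falls among DEGs with a symbol, separated genotypes and a mean log2 CPM from 1 upwards, filled from genes at an adjusted p of 0.05, the next 6 by adjusted p, and called list members. Members and gene lists were chosen with earlier results of these data known, and list medians carry no test. The LOC genes, *APOB*, *ASIP* and uncalled list members such as *AQP5*, *FOXJ1* and *KRT5* were chosen after their values were seen. Gene structures come from the coordinates in the count table, and 1 gene with a shortened coordinate cell was left out of them. Replicate numbers do not pair animals, since deviations of same-numbered libraries correlated at -0.04 over 14189 genes. Alternatives were DESeq2 1.42.0, RLE and upper quartile scaling, other filters, glmTreat, fits of fewer libraries, a replicate block, summed WT libraries and equal depth. Others were a bias-adjusted quasi-likelihood, a length trend removed by lowess (span 0.3) and each day 100 library left out. The fits without chromosome X and without WT replicate 2 of day 65 were chosen after seeing the data. Scripts were tested on simulated data. Some genes are not reported here.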

Additional observations from a re-analysis of the deposited data

Results flagged for a closer look

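The difference between CF and WT at day 100 departed from its mean at days 65, 80 and 120 in LOC101103227, by 2.55 on the log2 scale (adjusted p = 0.0316, edgeR).

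For other named genes both CF libraries lay on one side of both WT libraries at day 100 and on the other side on another distal day. These changes of side were not tested one by one. At term the 7 lower DEGs had log2 fold changes of 2.71 (*CDR1*), 1.51 (LOC106991688), 0.70 (LOC780463), 0.60 (LOC106990881), 0.59 (LOC105604520), 0.58 (LOC105610137) and 0.58 (LOC101118825), against -3.90 to -2.08 at day 100. *SDR16C5*, a retinol dehydrogenase gene, was at 1.24 at term against -3.71. The chloride channel *ANO1* was at -0.31 at day 120 and -1.70 at term against 0.31 at day 100, and the sodium channel subunit *SCNN1A* at -1.24 at term against 0.51.

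Other genes changed side before term. *SFTPA1*, surfactant protein A, was at 1.57 at day 80 and 2.59 at day 120 against -0.65 at day 100. Complement *C3* was at 1.01 at day 65 and 1.66 at day 120 against -0.94, and *CHI3L1* at 0.85 and 1.45 on these days against -0.66. *CXCL8* was at 0.27 at day 65 against -3.07, *TJP1* at -0.24 at day 65 against 0.13, and *LUZP2* at -0.96 at day 80 against 2.89. None of these 6 genes passed the test of day 100 against the mean of the other 3 days before term.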

How the results depend on the processing

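The count of 30 DEGs became 591 with DESeq2, 51 where average levels below a log2 CPM of 1 were dropped, 2759 with the 4 day 100 libraries fitted alone, 65 with the 16 distal libraries before term, 0 with the WT libraries summed, 0 with glmTreat, 49 with the length trend removed and 648 at an unadjusted p of 0.001. It was 0 to 30 with a library left out, 30 being without WT replicate 2 of day 65. The 1064 genes at an adjusted p of 0.05 became 2341, 8500, 1994, 61 and 131 with DESeq2, the 4 libraries alone, the 16 libraries, WT summed and glmTreat, 656 by the unadjusted limit, and 86 to 205 without any of the 4 compared libraries, or 960 without WT replicate 2 of day 65. With the replicate block, although the numbers pair no animals, they were 1626.

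The single gene of the day difference became 19 with DESeq2, 2 with no filter, 3 with the 16 libraries, 23 unadjusted, 0 with WT summed, at equal depth, with the bias-adjusted quasi-likelihood and with glmTreat, and 0 to 4 with a library left out. The 0 proximal DEGs became 168, 1 and 221 with DESeq2, the 4 libraries alone and unadjusted. *CFTR* was called at -0.47 with the 4 libraries alone.

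Low or unchanged genes turned sign. *WFDC2* was 0.17 and LOC101123672 -0.040 with the length trend removed. *SCGB1A1* was 0.37 there, 0.023 with the replicate block and -0.95 to 7.70 with a library left out, and LOC101123672 -0.066 to 0.25. The cause was not tested. Depth limits genes such as *SCGB1A1*, *BPIFA1* and *EPYC*, which have few reads in a group.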

Other observations

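Other lists gave single calls. *HOXA4*, a patterning gene, had 23.6 and 21.5 CPM in WT and 50.5 and 59.7 in CF (log2 fold change 1.29, adjusted p = 0.0183, edgeR). It was the single call among 22 HOX genes (4.55%, against 3.96% of all genes called higher), of which 19 were positive. The median of the HOX list was 0.58 and ran from 0.10 to 0.96 with a library left out. *SDPR*, a caveolae gene on the glucocorticoid response list, had 246 and 264 CPM in WT and 114 and 126 in CF (-1.09, adjusted p = 0.0202, edgeR). It was 1 of 14 genes tested there (7.14%, against 1.34% of all genes called lower). *CSPG4*, a pericyte proteoglycan, rose by 0.96, *LTBP3*, a TGF-beta binding protein of elastic fibres, by 0.89 and *ACTN2*, a sarcomere gene, by 1.29 on the log2 scale. They were 1 of 6 pericyte markers (16.7%), 1 of 20 elastic fibre genes (5%) and 1 of 4 heart muscle markers (25%), against 3.96% of all genes. *CHPT1*, of phosphatidylcholine synthesis, fell by 0.61, the single call among 25 surfactant lipid genes (4%, against 1.34% of all genes), while 20 of the 25 were positive. Of 5 basal cell markers 0 passed, with *KRT5* at 2.62 and 3.86 CPM in WT and 0.205 and 0.119 in CF (adjusted p = 0.143).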
